A study of Mus musculus with 4 samples.

Results

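The let-7 hairpins and Mir98 are mouse genes of one miRNA family with a common seed. Here the 9 hairpins Mirlet7a-1, Mirlet7b, Mirlet7c-2, Mirlet7d, Mirlet7f-1, Mirlet7f-2, Mirlet7g, Mirlet7i and Mir98 were taken by symbol from a table of 141239 features, of which 2022 are typed as miRNA in GENCODE M21. All 9 were in the table, and all 9 had well over 100 counts in every library. The other annotated let-7 hairpins (Mirlet7a-2, Mirlet7c-1, Mirlet7e, Mir7j and Mir7k) are not among the 9 and are used below for comparison.

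Small RNA was read from RAW264.7, a mouse macrophage-like cell line, and from the extracellular vesicles those cells released. The cells expressed either a non-silencing short hairpin (shNS) or a hairpin against Dis3l2 (shDis3l2), and all 4 libraries came from cultures given doxycycline at 1 µg per mL. Vesicles were collected for 24 h in medium with vesicle-depleted serum, separated on a sucrose gradient and treated with micrococcal nuclease. Each of the 4 groups (cells or vesicles, shNS or shDis3l2) is 1 library, so no difference below has a replicate check and no p-value is given. The intervals are exact 95% intervals (approximate for a difference of ratios) that cover counting error only.

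The let-7 precursors are folded hairpins from which Dicer releases a short mature miRNA. LIN28 proteins bind the loop of these precursors and recruit the uridylyltransferases TUT4 and TUT7, and Dis3l2 is the exonuclease known to degrade the resulting oligouridylated precursors. Mature let-7 holds down growth-promoting mRNAs such as those of Hmga2, Lin28b and the Ras genes, and it is abundant in most differentiated cells, macrophages included. A count in this table is that of a whole hairpin, so the mature strand, the opposite arm, and any precursor are counted together, and tails of added uridines are not reported.

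The mature 5p sequences are shown first because most of the family differs at only a few of these letters. They are from RefSeq (GRCm38.p6), in which all 9 hairpins matched by symbol. Capitals mark the seed, bases 2 to 8, which pairs with target mRNAs.
let-7a-5p: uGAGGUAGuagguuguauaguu
let-7b-5p: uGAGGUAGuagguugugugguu
let-7c-5p: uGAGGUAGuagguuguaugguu
let-7d-5p: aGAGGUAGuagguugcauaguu
let-7f-5p: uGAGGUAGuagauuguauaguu
let-7g-5p: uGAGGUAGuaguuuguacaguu
let-7i-5p: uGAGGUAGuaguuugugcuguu
miR-98-5p: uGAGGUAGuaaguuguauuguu

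The 9 hairpins give 8 different mature sequences, each 22 nt long with 1 common seed. Counted from the 5′ end of let-7a, let-7c differs by A19G, let-7f by G12A, and let-7b by A17G and A19G. let-7d differs by U1A and U16C, let-7g by G12U and U18C, and miR-98 by G11A and A19U. let-7i is the farthest from let-7a, with G12U, A17G, U18C and A19U. Of the 28 pairs, 3 differ at 1 base (let-7a with let-7c, let-7a with let-7f, and let-7b with let-7c), and the most distant pair, let-7d and let-7i, differs at 6. A single misread or edited base can therefore move a read between some members, and Mirlet7f-1 and Mirlet7f-2 share the whole mature sequence.

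Other hairpins of the table carry this seed as well. Of these, Mirlet7e had 106411 counts in shNS-labelled cells, 29338 in shDis3l2-labelled cells, and 7683 and 1974 in the vesicles of the same labels. Mirlet7c-1 had 7036 and 13092 counts in cells and 4542 and 4373 in vesicles. Mir1961 had at most 4 counts and Mir7k had 0.

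The 9 hairpins lie at 5 loci of GRCm38. Mirlet7a-1 (chromosome 13, 48538179 to 48538272), Mirlet7f-1 (48537829 to 48537917) and Mirlet7d (48536012 to 48536114) form a cluster on the minus strand, within the exon of the lincRNA 6720427I07Rik. Mirlet7c-2 (chromosome 15, 85706603 to 85706697) and Mirlet7b (85707319 to 85707403) lie on the plus strand within an exon of the noncoding gene Lncppara. Mirlet7f-2 (chromosome X, 151912346 to 151912428) and Mir98 (151913214 to 151913321) lie in an intron of Huwe1, which encodes a ubiquitin ligase. Mirlet7g (chromosome 9, 106178840 to 106178927) lies in an intron of Wdr82, a subunit of a histone methyltransferase complex. Mirlet7i (chromosome 10, 122985640 to 122985724, minus strand) lies in an exon of the pseudogene transcript D630033A02Rik.

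Libraries held between 17612856 and 19741041 counts, of which miRNA hairpins took 13480443 (shNS-labelled cells), 11273350 (shDis3l2-labelled cells), 3477466 (shNS-labelled vesicles) and 1854287 (shDis3l2-labelled vesicles). Dis3l2 had 41 counts in shNS-labelled cells and 13232 in shDis3l2-labelled cells, with 1713 and 1894 in vesicles. In small RNA libraries these counts do not measure its mRNA, so they do not show whether Dis3l2 was reduced. Whether they include reads of the expressed hairpin against Dis3l2 was not tested. Libraries are named by label throughout. Of the macrophage markers, Mir142 stood between 65638 and 82945 counts per 1000000 miRNA counts, Lyz2 between 122 and 2161 counts and Csf1r between 106 and 1102 counts, while the row of the Mir223 hairpin was at 0 in all 4 libraries. Other macrophage markers were low: Adgre1 had 7 to 62 counts, Cd68 48 to 256 and Ptprc 98 to 233. Fibroblast collagens (Col1a1 and Col1a2 summed) had 23 to 45 counts, the muscle list 7 to 34 and the T and B cell list 16 to 33. The epithelial list had 546 and 726 counts in cells and the neural list 326 and 265. Both lay above Lyz2, at 223 and 122 there. The summed endothelial list had 3056 counts in shNS-labelled and 13143 in shDis3l2-labelled cells, nearly all from Mir126a.

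Together the 9 hairpins took 28.0% of miRNA counts in the shNS-labelled cell library (95% interval 28.01 to 28.06) and 30.8% in the shDis3l2-labelled one (30.78 to 30.84). In vesicles they took 28.9% with either label (28.82 to 28.92 and 28.85 to 28.98). The 4 shares thus lay within 3 percentage points of each other, and the highest was that of the shDis3l2-labelled cell library. As a share of all counts the picture differed, because miRNAs made up 68.3% and 61.2% of all counts in cells but 19.1% and 10.5% in vesicles. Together the hairpins were 19.1% and 18.9% of all counts in cells, against 5.52% and 3.04% in vesicles.

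**Figure D1:**
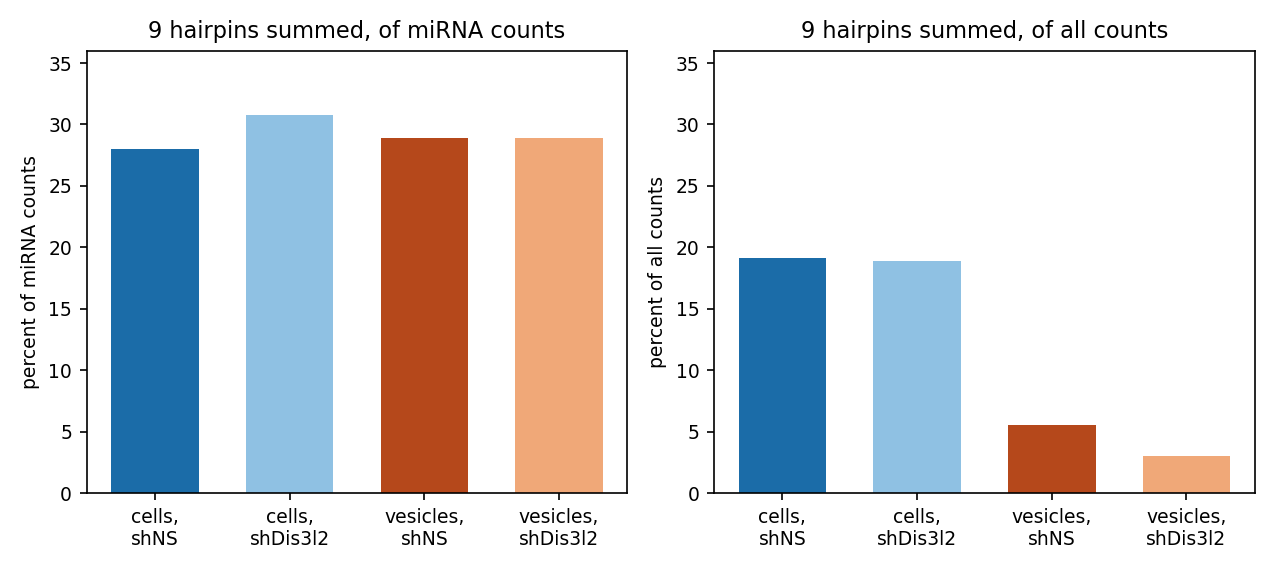
Share of the 9 hairpins summed, in percent of miRNA counts (left) and in percent of all counts (right), 1 bar for each of the 4 libraries. The shares of miRNA counts lie between 28.0% and 30.8%, whereas the shares of all counts are 19.1% and 18.9% in cells and 5.52% and 3.04% in vesicles.

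Levels below are counts per 1000000 miRNA counts (CPM), scaled to the miRNA total of each library. Mirlet7i, the most abundant member in each library, was at 59349 CPM in the shNS-labelled cell library, 69006 in the shDis3l2-labelled cell library, 78767 in the shNS-labelled vesicle library and 73391 in the shDis3l2-labelled vesicle library. It was the rank 3 hairpin of all miRNAs in both cell libraries and rank 2 in both vesicle libraries. Both vesicle values lay above both cell values.

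Mirlet7c-2, the main hairpin of let-7c, was at 48009 and 60089 CPM in cells (labels shNS and shDis3l2, the order used from here on) and 51842 and 55789 in vesicles. Cell and vesicle values overlapped, and the label shDis3l2 had the higher value in each compartment. Mirlet7b, which follows Mirlet7c-2 in Lncppara, was at 24695 and 26589 CPM in cells and 19365 and 22489 in vesicles. Here too the library labelled shDis3l2 was higher in each compartment, and both vesicle values lay below both cell values.

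Mirlet7a-1, the hairpin that carried nearly all counts of let-7a, was at 49612 and 50616 CPM in cells and 41939 and 39068 in vesicles. Its cluster neighbour Mirlet7f-1 went the other way, with 37068 and 40362 CPM in cells and 49322 and 52661 in vesicles. Mirlet7d, the remaining hairpin of this cluster, was at 5591 and 5395 CPM in cells and 6510 and 6598 in vesicles. Cells and vesicles did not overlap for any of the 3, with Mirlet7a-1 lower in vesicles and the other members of the cluster higher.

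Mirlet7f-2, the second source of let-7f, was at 45569 and 45858 CPM in cells and 30565 and 28266 in vesicles. Mir98, which shares the Huwe1 intron with it, was at 1283 and 1383 CPM in cells and 1817 and 1932 in vesicles. Mirlet7g was at 9165 and 8821 CPM in cells and 8586 and 8936 in vesicles, with cell and vesicle values overlapping. Mirlet7f-2 was thus lower in both vesicle libraries and Mir98 higher in both.

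The order of the members was Mirlet7i, Mirlet7a-1, Mirlet7c-2, Mirlet7f-2, Mirlet7f-1, Mirlet7b, Mirlet7g, Mirlet7d and Mir98 in the shNS-labelled cell library. In the shDis3l2-labelled cell library, Mirlet7c-2 stood above Mirlet7a-1, and the rest of the order was as before. In both vesicle libraries it was Mirlet7i, Mirlet7c-2, Mirlet7f-1, Mirlet7a-1 and Mirlet7f-2, and then Mirlet7b, Mirlet7g, Mirlet7d and Mir98. No neighbours in these orders had overlapping counting intervals, but the spread between cultures is not known. The mature 5p products all have the same length, whereas the hairpins, over which reads were counted, do not. Divided by hairpin length (83 to 108 nt), Mirlet7f-2 moved ahead of Mirlet7a-1 in both cell libraries, and Mirlet7f-1 ahead of Mirlet7c-2 in both vesicle libraries.

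**Figure D2:**
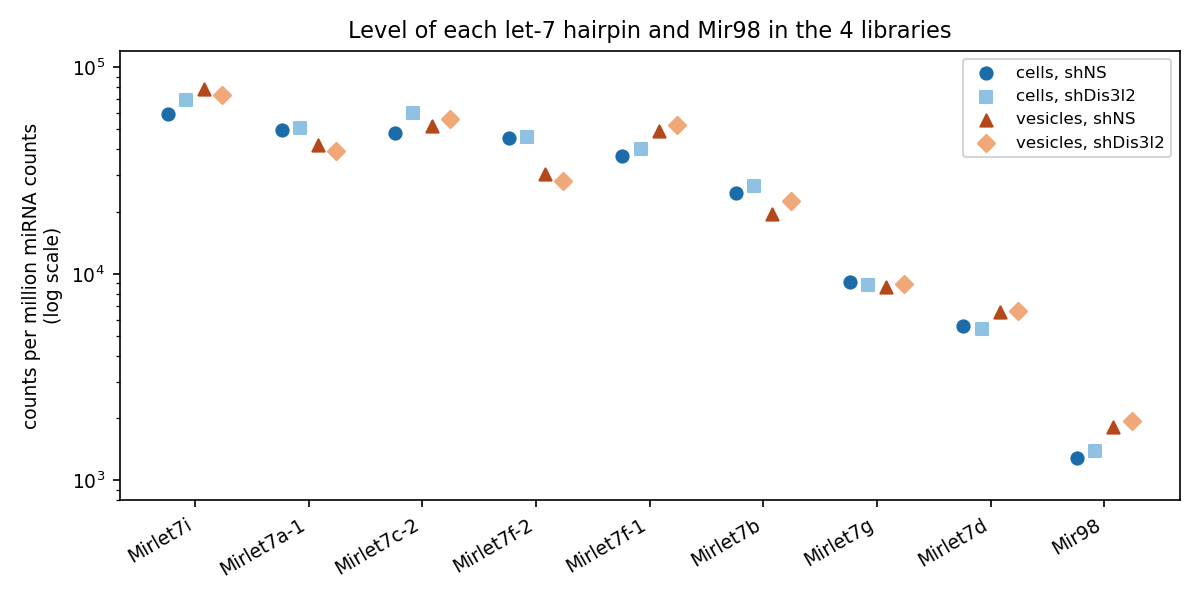
Level of each of the 9 hairpins in counts per 1000000 miRNA counts (log axis), with 1 symbol per library. Mirlet7i is highest throughout, from 59349 to 78767, and Mir98 lowest, from 1283 to 1932. The vesicle symbols (triangles and diamonds) lie below the cell symbols for Mirlet7a-1, Mirlet7f-2 and Mirlet7b and above them for Mirlet7i, Mirlet7f-1, Mirlet7d and Mir98.

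The first comparison set the shDis3l2-labelled cells against the shNS-labelled cells. The 9 hairpins summed were higher under the shDis3l2 label by 0.14 on the log2 scale (95% interval 0.13 to 0.14), which is 1.10-fold. No member reached 2-fold, whereas 16.5% of the 206 hairpins with at least 100 counts did (7.28% higher and 9.22% lower). Mirlet7e and Mirlet7c-1, which are not among the 9, were past 2-fold in opposite directions, at -1.60 and 1.15. Mir7j, from 67 and 72 counts, was at 0.36 and short of 2-fold. Members stood between -0.06 and 0.32, with 7 above 0 and 2 below it and a median of 0.11, against a median of 0.03 over all hairpins. Of the 9, 8 lay within the interquartile range of all hairpins (-0.31 to 0.29), and Mirlet7c-2 lay above it.

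Mirlet7c-2 had the largest ratio of the 9 in cells, 0.32 (0.32 to 0.33) or 1.25-fold, at rank 47 of 206. Mirlet7i followed at 0.22 (1.16-fold). Mirlet7f-1 at 0.12, Mir98 at 0.11 and Mirlet7b at 0.11 stood close to the family sum. Mirlet7a-1 at 0.03 and Mirlet7f-2 at 0.01 were nearly level, and Mirlet7d at -0.05 and Mirlet7g at -0.06 were just below 0. These ratios depend on the scale: with the total of all features in place of the miRNA total every ratio of this comparison moves by -0.16, which takes the sum to -0.02 and changes the sign of 5 members. The differences among members do not depend on it. Mirlet7c-2 stood 0.19 above the family sum and Mirlet7g 0.19 below it.

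By genomic locus, the sum of Mirlet7c-2 and Mirlet7b on chromosome 15 was at 0.25, that of the chromosome 13 cluster at 0.06 and that of the chromosome X pair at 0.01. Lncppara, the transcript whose exon holds the chromosome 15 pair, had 7002 and 7488 counts and a ratio of 0.35 (0.31 to 0.40) on the same scale. The lincRNA 6720427I07Rik of the chromosome 13 cluster had 1024 and 969 counts and a ratio of 0.18 (0.05 to 0.31). Both transcripts contain the mature let-7 sequences themselves, so part of their counts can be let-7 reads.

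In the second comparison the shDis3l2-labelled vesicles were set against the shNS-labelled vesicles. The sum of the 9 hairpins was at 0.00 (-0.00 to 0.01), from 1003992 and 536129 counts. No member reached 2-fold, whereas 23.6% of 195 hairpins did (17.4% higher and 6.15% lower). Outside the 9, Mirlet7e was past 2-fold at -1.05 (-1.13 to -0.98), and Mirlet7c-1 was at 0.85 (0.79 to 0.91). Members stood between -0.11 and 0.22 with a median of 0.06, against 0.22 over all hairpins, and all 9 lay within the interquartile range of hairpins (-0.16 to 0.76). On the scale of all features every ratio of this comparison moves by -0.86, so that the sum is at -0.86 and all 9 members are below 0.

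Mirlet7b was the highest of the 9 in this comparison at 0.22 (0.20 to 0.23), or 1.16-fold. Mirlet7c-2 at 0.11, Mirlet7f-1 at 0.09, Mir98 at 0.09 and Mirlet7g at 0.06 were also above 0. Mirlet7d was at 0.02 with an interval that includes 0 (-0.01 to 0.05). Mirlet7a-1 and Mirlet7i were both at -0.10 and Mirlet7f-2 at -0.11. As in cells, the chromosome 15 pair stood highest of the loci, at 0.14, with the chromosome 13 cluster at 0.01 and the chromosome X pair at -0.10.

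The difference between the label ratio in vesicles and that in cells was -0.13 for the sum (-0.14 to -0.13). Mirlet7i had the largest difference, -0.32 (-0.33 to -0.31), because it was higher under the shDis3l2 label in cells and lower in vesicles. Mirlet7c-2 followed at -0.22, then Mirlet7a-1 at -0.13 and Mirlet7f-2 at -0.12. Mirlet7g and Mirlet7b differed in the other direction, by 0.11 each, and Mirlet7d by 0.07. These directions depend on the scale. With the total of all features the difference was -0.84 for the sum and below 0 for each of the 9. Mirlet7f-1 at -0.03 and Mir98 at -0.02 (-0.09 to 0.05) had nearly equal ratios in both compartments. The interval of Mir98 was the one among the 9 that includes 0.

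**Figure D3:**
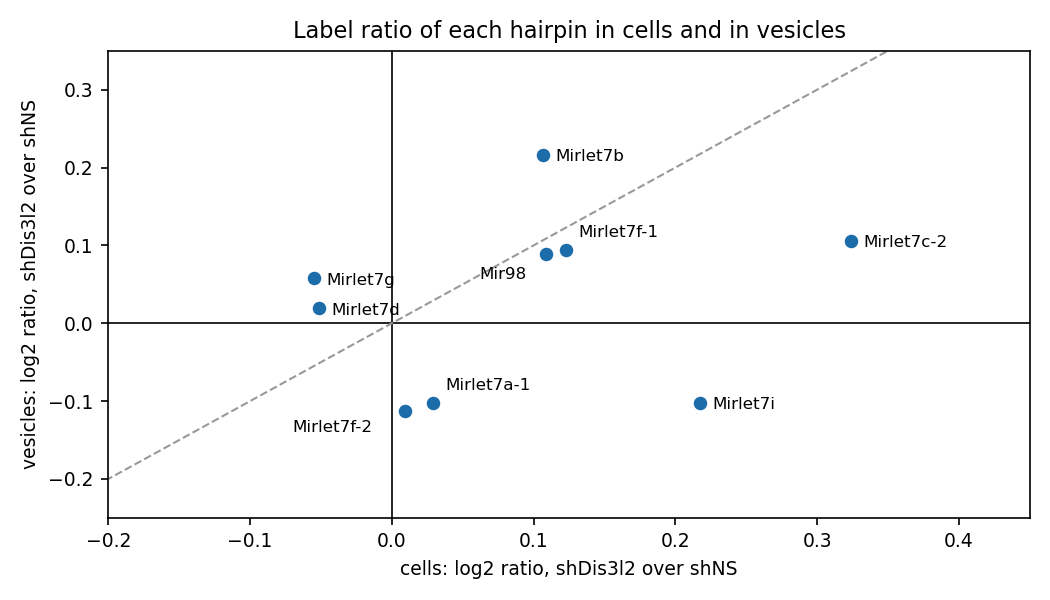
Log2 ratio of shDis3l2 over shNS for each of the 9 hairpins in cells (horizontal axis) and in vesicles (vertical axis), with equal ratios along the dashed line. Mirlet7b, Mirlet7c-2, Mirlet7f-1 and Mir98 are above 0 on both axes, whereas Mirlet7i is at 0.22 in cells and -0.10 in vesicles.

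The other comparisons set vesicles against cells under each label, to ask which RNAs are found in released vesicles relative to their cells of origin. They share libraries with the label comparisons and are given as values side by side. With the label shNS the sum of the 9 hairpins was at 0.04 (0.04 to 0.05), and under the shDis3l2 label at -0.09 (-0.10 to -0.09). No member was 2-fold apart in either, against 40.5% of 210 hairpins under the shNS label (33.8% higher and 6.67% lower in vesicles) and 46.6% of 206 under the shDis3l2 label (37.4% higher and 9.22% lower). Outside the 9, Mirlet7e stood at -1.84 and -1.29 and Mirlet7c-1 at 1.32 and 1.02. The median over all hairpins was 0.44 and 0.50, and the median over the 9 was 0.11 and 0.02. The hairpins are thus level with the miRNA total, while the typical hairpin, which is less abundant, stood above it.

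On other scales vesicles stood lower. On the scale of all features the sum was at -1.79 under the shNS label and -2.63 under the shDis3l2 label. There 9 of 9 members were at least 2-fold lower in vesicles under either label, as were 135 of 210 and 145 of 206 hairpins. In either direction, 78.1% and 86.4% of hairpins were 2-fold apart. The table cannot tell fewer let-7 molecules per vesicle from more of the other RNAs. Some erythroid and serum miRNAs moved with compartment as well. Mir451a had 4 and 3 counts in cells and 376 and 157 in vesicles. Mir144 had 5 and 0 counts in cells and 477 and 266 in vesicles. Mir122 hardly differed in counts, with 132 and 148 in cells, most of the sum of the list there, and 125 and 163 in vesicles. Scaled to miRNA counts it was at 9.79 and 13.1 CPM in cells and 35.9 and 87.9 in vesicles. Mir486 had at most 3 counts. Over the whole erythroid and serum list, 5 of the 6 genes in the table had counts in a vesicle library, the sum was 145 and 156 counts in cells and 1048 and 757 in vesicles, and Hba-a1 was at 0 in all 4 libraries. The part of serum or blood-cell RNA in the vesicle let-7 counts was not tested.

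The members diverged more between compartments than between labels, as did hairpins in general. For vesicles against cells the interquartile range of all hairpins was -0.22 to 1.50 (label shNS) and -0.20 to 1.92 (label shDis3l2). It was -0.31 to 0.29 and -0.16 to 0.76 for the label ratios in cells and in vesicles. Of the 9 members, 6 lay within the range of vesicles against cells under either label. With the label shNS the members spanned 1.08 on the log2 scale from the lowest to the highest, and under the shDis3l2 label 1.18. This compares with 0.38 and 0.33 for the label ratios in cells and in vesicles. Mirlet7f-2 was lowest, at -0.58 (-0.59 to -0.57) under the shNS label and -0.70 (-0.71 to -0.69) under the shDis3l2 label, or 1.49-fold and 1.62-fold lower in vesicles. Mir98 was highest, at 0.50 (0.46 to 0.54) and 0.48 (0.43 to 0.53), or 1.42-fold and 1.40-fold higher. The hairpins with the lowest and the highest ratio lie in the same intron of Huwe1. Huwe1 itself had 93 and 146 counts in cells and 530 and 501 in vesicles, a ratio of 4.46 and 4.38 on the miRNA scale. With all features as the scale these ratios move by -1.84 and -2.54. On that scale the median over all genes other than miRNAs was 1.95 and 2.16, so a high ratio was not particular to Huwe1.

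Mirlet7f-1 stood next to Mir98, at 0.41 under the shNS label and 0.38 under the shDis3l2 label. Mirlet7i was at 0.41 under the shNS label but at 0.09 under the shDis3l2 label. Mirlet7d was at 0.22 and 0.29. Below 0 under both labels were Mirlet7b at -0.35 and -0.24 and Mirlet7a-1 at -0.24 and -0.37. Mirlet7c-2 was at 0.11 and -0.11 and Mirlet7g at -0.09 and 0.02 (-0.00 to 0.04), so these hairpins had no common sign. Relative to the family sum, which no scale affects, Mirlet7f-2 stood at -0.62 and -0.61, Mirlet7f-1 at 0.37 and 0.48, and Mir98 at 0.46 and 0.57.

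**Figure D4:**
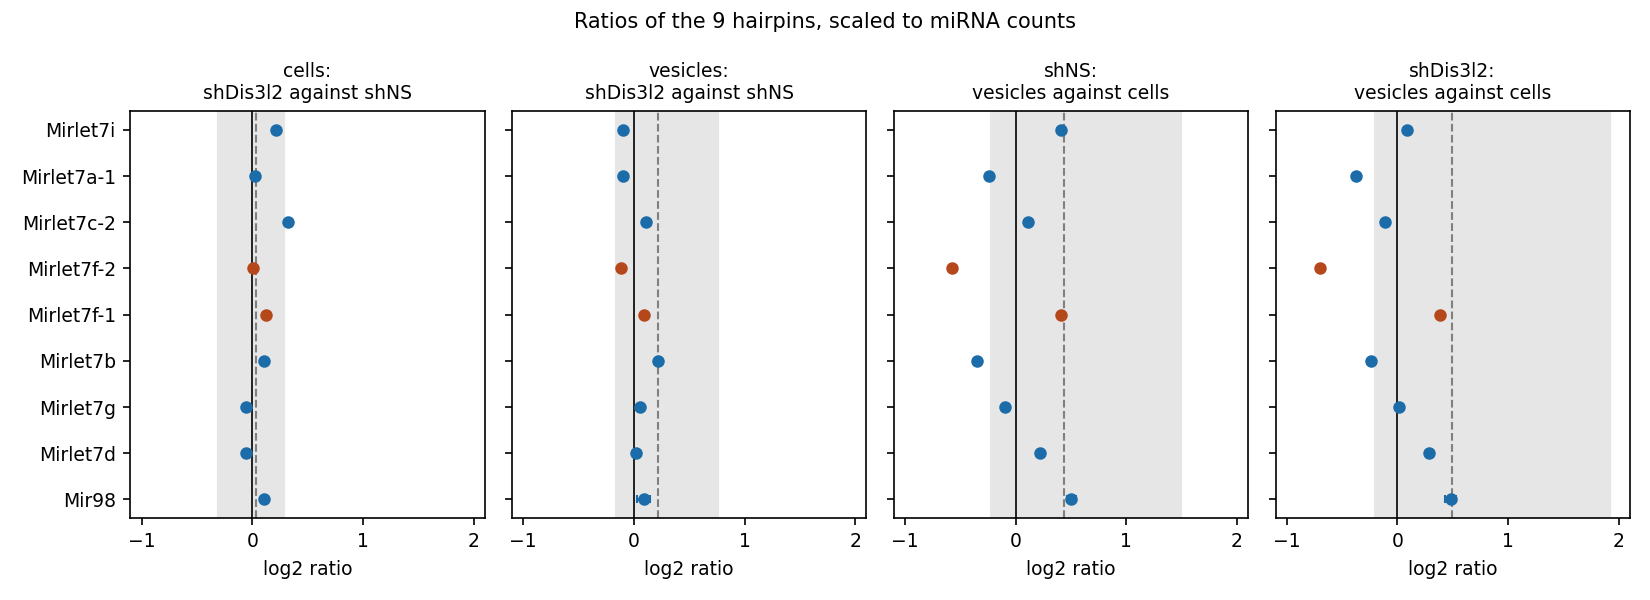
Log2 ratios of the 9 hairpins in the 4 comparisons, scaled to miRNA counts, with exact 95% counting intervals (mostly narrower than the symbols). Grey bands are the interquartile range of all hairpins with at least 100 counts and dashed lines mark their median. In the vesicle comparisons on the right, the let-7f copies (orange-brown) stand apart, Mirlet7f-2 at -0.58 and -0.70 and Mirlet7f-1 at 0.41 and 0.38.

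The hairpins of Mirlet7f-1 and Mirlet7f-2 are shown because they give the same mature let-7f, yet their ratios of vesicles to cells lay on opposite sides of 0. Capitals mark the mature 5p sequence. Mirlet7f-1 is chr13:48537829-48537917 on the minus strand and Mirlet7f-2 is chrX:151912346-151912428 on the plus strand (RefSeq, GRCm38.p6).
Mirlet7f-1: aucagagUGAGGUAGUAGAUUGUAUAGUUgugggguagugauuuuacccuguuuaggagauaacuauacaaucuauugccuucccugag
Mirlet7f-2: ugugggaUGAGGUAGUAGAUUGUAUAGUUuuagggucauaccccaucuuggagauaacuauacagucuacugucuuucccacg

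The longest stretch the let-7f hairpins share is 22 nt, which is the mature sequence, so a read of exactly that sequence fits either copy. A read is told apart only by bases before or after it, or by the other arm. Mirlet7f-2 held 55.1% of let-7f counts in the shNS-labelled cell library (95% interval 55.05 to 55.24) and 53.2% in the shDis3l2-labelled one (53.09 to 53.29). It held 38.3% (38.08 to 38.44) and 34.9% (34.69 to 35.17) in the vesicle libraries. The split thus differed by compartment, with Mirlet7f-2 the larger copy in both cell libraries and the smaller in both vesicle libraries.

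The sum of the copies hardly differed. let-7f as a whole was at 82637 and 86219 CPM in cells and 79887 and 80928 in vesicles. Its ratio of vesicles to cells was -0.05 under the shNS label (-0.06 to -0.04) and -0.09 under the shDis3l2 label (-0.10 to -0.08). Its label ratio was 0.06 in cells and 0.02 in vesicles. The copies thus stood far apart while their sum stayed within 0.09 of the miRNA total in every comparison. Summed over copies, the spread over mature sequences in vesicles against cells ran from Mirlet7b (-0.35) to Mir98 (0.50) under the shNS label, and from let-7a (-0.37) to Mir98 (0.48) under the shDis3l2 label.

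**Figure D5:**
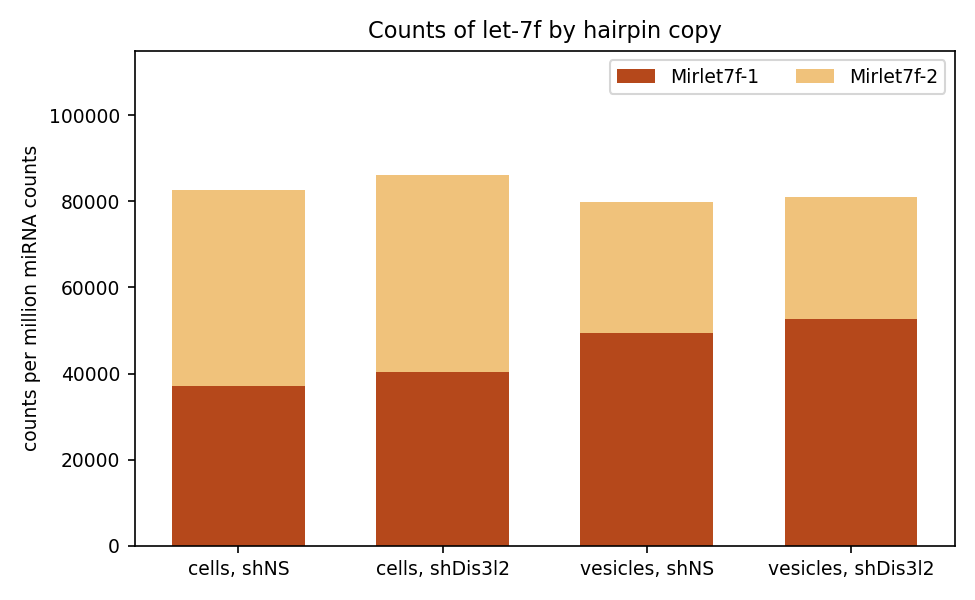
Counts per 1000000 miRNA counts of let-7f in each library, stacked by hairpin copy, with Mirlet7f-1 below and Mirlet7f-2 above. The totals lie between 79887 and 86219, whereas Mirlet7f-2 is at 45569 and 45858 in cells and 30565 and 28266 in vesicles.

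Copies of let-7a show the same limit in its extreme form. They are Mirlet7a-1, chr13:48538179-48538272 on the minus strand, and Mirlet7a-2, chr9:41536716-41536811 on the plus strand, with the mature 5p sequence again in capitals.
Mirlet7a-1: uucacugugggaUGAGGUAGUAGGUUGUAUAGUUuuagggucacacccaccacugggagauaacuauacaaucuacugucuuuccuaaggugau
Mirlet7a-2: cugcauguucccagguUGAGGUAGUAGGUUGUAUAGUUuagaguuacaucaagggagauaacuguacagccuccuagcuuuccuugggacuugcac

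These hairpins share 23 nt in a row, the mature sequence and 1 further base. Mirlet7a-2 nevertheless had 4, 4, 7 and 0 counts, against 668795, 570615, 145842 and 72443 for Mirlet7a-1 in the order of cells and then vesicles. In the shDis3l2-labelled vesicle library the count of 0, read as up to 3 counts, is at most 0.00414% of the counts assigned to let-7a. Reads of the shared mature sequence fit either copy, so this does not bound what Mirlet7a-2 contributes to let-7a. Adding Mirlet7a-2 left every let-7a ratio as it was to 2 decimals. For let-7c, Mirlet7c-1 held 1.08% and 1.90% of the counts of both copies in cells and 2.46% and 4.06% in vesicles, and adding it gave ratios of 0.34 and 0.13 for the labels and 0.13 and -0.08 for vesicles against cells.

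Mirlet7a-1 and Mirlet7c-2 are also linked through the other arm. Their 3p arms are the same 22 nt, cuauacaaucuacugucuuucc, within a shared stretch of 26 nt, so reads of that arm cannot be given to one or the other. Other features of the table that contain a mature let-7 sequence are the host transcripts. Lncppara had 7002 and 7488 counts in cells and 680 and 478 in vesicles, and 6720427I07Rik 1024 and 969 in cells and 286 and 154 in vesicles. Against 3779130 counts of the 9 hairpins in the shNS-labelled cell library, all transcripts whose exons overlap a member held 8405, and adding them moved the sum by less than 0.01 in each comparison. Gm24111, a miRNA locus on the strand opposite Mirlet7f-1, had 359 and 287 counts in cells and 66 and 36 in vesicles. Sources used here do not say whether counting used strand, so these cannot be told apart from reads of Mirlet7f-1.

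Lncppara did not follow its hairpins into vesicles. On the miRNA scale it was 2.65-fold lower in vesicles under the shNS label (-1.41, -1.53 to -1.30) and 2.57-fold lower under the shDis3l2 label (-1.36, -1.50 to -1.23). The chromosome 15 pair itself was at -0.03 and -0.15. The transcript 6720427I07Rik was at 0.12 (-0.08 to 0.31) and -0.05 (-0.30 to 0.20), close to the chromosome 13 cluster at 0.08 and 0.03. Wdr82, the host of Mirlet7g, had 55 and 41 counts in cells and 188 and 212 in vesicles. D630033A02Rik, which overlaps Mirlet7i, had 19 and 49 counts in cells and 35 and 68 in vesicles, a ratio of 1.60 for the label in cells and 1.86 in vesicles, from few counts.

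The base that follows the mature 5p sequence in the hairpin also differs among the 9, and this division was looked at after the ratios were seen. It is G in Mirlet7f-1, Mirlet7i and Mir98 and U in the other 6. With the label shNS the 3 hairpins with G stood between 0.41 and 0.50 in vesicles against cells, and the 6 with U between -0.58 and 0.22, without overlap. With the label shDis3l2 the ranges were 0.09 to 0.48 and -0.70 to 0.29 and overlapped. In the label comparison of cells the ranges were 0.11 to 0.22 and -0.06 to 0.32, and in that of vesicles -0.10 to 0.09 and -0.11 to 0.22. Of the let-7 hairpins outside the 9, Mirlet7e, with G, was at -1.84 and Mirlet7c-1, with U, at 1.32 in vesicles against cells under the shNS label, so they went against this division.

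LIN28 proteins contact let-7 loops through a zinc knuckle that binds GGAG and a cold shock domain that binds GNGAC or GNGAU. These motifs were searched in the sense strand of the hairpin between the 5p and 3p arms, where they can overlap each other. GGAG was found in 6 of the 9, all but Mirlet7b, Mirlet7c-2 and Mir98, and in 8.04% of 622 hairpins of the table with both arms in RefSeq. GNGAC or GNGAU was found in 8 of the 9, all but Mirlet7c-2, and in 9.49% of the 622. The 3 hairpins without GGAG had label ratios of 0.11 to 0.32 in cells and 0.09 to 0.22 in vesicles. Those 6 with GGAG stood between -0.06 and 0.22 in cells and between -0.11 and 0.09 in vesicles, so the ranges overlapped in both compartments. Outside the 9, Mirlet7e and Mirlet7c-1 also have GGAG between the arms. Their label ratios were -1.60 and 1.15 in cells and -1.05 and 0.85 in vesicles, beyond all of these ranges. A match describes the letters in the window and not binding.

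Among the 142 hairpins outside the let-7 family with at least 1000 counts over the 4 libraries, the profile most like that of the family sum was that of Mir16-1, a hairpin of the miR-15/16 family. The measure was the Euclidean distance between centred log2 CPM values over the 4 libraries, 0.10 for Mir16-1, which was at 125233 and 151651 CPM in cells and 134666 and 137203 in vesicles. Mir374b and Mir194-1 followed at 0.11 each, Mir155, a miRNA induced in activated macrophages, at 0.18 and Mir188 at 0.20. Mir155 was at 650 and 756 CPM in cells and 597 and 682 in vesicles. Of the members, Mirlet7g (0.14) and Mirlet7c-2 (0.15) were closest to the sum, and Mirlet7f-2 (0.62) and Mir98 (0.52) farthest. For Mirlet7f-2, 40 of the 142 other hairpins lay closer to the let-7 sum than it did.

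Fragments of the mRNAs of the pathway were sparse in these small RNA libraries, and they are given on the scale of all features for genes with at least 50 counts over both libraries. Such fragments do not measure mRNA levels. Of the 16 genes of let-7 precursor control and tailing, 7 were measured in cells, and 1 was at least 2-fold higher under the shDis3l2 label (Dis3l2 itself) and 0 lower, against 17.2% of 6476 genes 2-fold apart. The list's median was 0.25, against 0.10 over all genes. Trim25, a cofactor of let-7 tailing, had 652 and 527 counts (-0.21) and Hnrnpa1, which binds let-7 precursors, 84 and 137 (0.80). The uridylyltransferases were low: Tut7 had 71 and 73 counts (0.14, -0.35 to 0.63) and Tut4 28 and 41 (0.64, -0.08 to 1.40).

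In vesicles 14 of these 16 genes were measured and 0 were 2-fold apart between the labels, against 13.4% of 11052 genes. Tut4 had 88 and 147 counts (0.78, 0.40 to 1.18), Tut7 98 and 141 (0.57, 0.19 to 0.96), and Lin28b, which blocks let-7 maturation, 62 and 63 (0.07, -0.46 to 0.60). The list's median was 0.25 and that of all genes 0.30. The most abundant were Trim25 with 3996 and 5767 counts (0.58), Dis3l2 (0.19) and Hnrnpa1 with 628 and 624 (0.04).

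Of 16 genes of miRNA biogenesis and Argonaute, 12 were measured in cells. Xpo5, the exporter of miRNA precursors, was 2.92-fold higher under the shDis3l2 label, from 14 and 39 counts, and 0 were 2-fold lower, against 17.2% of all genes 2-fold apart. Ddx5, a helicase of primary miRNA processing, had 235 and 183 counts (-0.26), Tnrc6b, a partner of Argonaute, 167 and 175 (0.17) and Ago2, the slicing Argonaute, 179 and 114 (-0.55, -0.90 to -0.20). In vesicles all 16 were measured, and 1 was 2-fold apart: Ago1, from 4 and 111 counts (4.68, 3.44 to 6.74), against 13.4% of all genes. Ago2 had 1247 and 1550 counts there (0.36), Ddx5 705 and 926 (0.44) and Ago3 564 and 748 (0.45). The list's median was -0.16 in cells, against 0.10 over all genes, and 0.34 in vesicles, against 0.30.

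Of 29 known let-7 targets, 17 were measured in cells, and 2 stood lower by 2-fold or more in the shDis3l2-labelled library, with 0 higher, against 17.2% of all genes 2-fold apart in either direction. These were Arid3a, a DNA-binding transcription factor, from 51 and 16 counts (-1.54, -2.48 to -0.74), and Ccnd2, a D-type cyclin, from 94 and 38 (-1.20, -1.79 to -0.65). The most abundant were Igf2bp1, an mRNA-binding protein, with 328 and 550 counts (0.85), Cdk6, a cell cycle kinase, with 191 and 240 (0.43) and Mycn with 166 and 150 (-0.05). Hmga2, the classical let-7 target, had 53 and 55 counts (0.15, -0.42 to 0.73). In vesicles 23 were measured and 0 were 2-fold apart, against 13.4% of all genes. E2f2 was the nearest to it at 0.98 (281 and 538 counts). Mycn was at 12098 and 11412 counts (-0.04), Cdk6 at 800 and 1138 (0.55) and Ccnd1 at 437 and 707 (0.74). The median of the targets was -0.06 in cells and 0.37 in vesicles, beside 0.10 and 0.30 over all genes.

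Between vesicles and cells most genes other than miRNAs were 2-fold apart in either direction, 83.5% of 10140 under the shNS label and 85.8% of 10438 under the shDis3l2 label. On this background, 13 and 12 of 14 measured genes of precursor control were at least 2-fold higher in vesicles, 11 of 14 and 12 of 15 genes of biogenesis, and 18 of 25 and 17 of 23 targets. The gene 2-fold lower in vesicles was Dis3l2 under the shDis3l2 label, by 6.68-fold. Igf2bp1 stood at -0.20 and -0.68, and Ccnd2 at -0.97 and -0.65. On the same scale the sum of the let-7 hairpins was at -1.79 and -2.63, beside medians of -1.40 and -2.04 over all hairpins. The medians of these lists ran from 1.63 to 2.44, beside 1.95 and 2.16 over all genes. The difference in sign was thus not particular to let-7 or to these lists.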

How the data were processed

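Estimated counts per transcript were deposited by the authors for 4 libraries, 1 column each. The tools cutadapt, Salmon and Novoalign and the builds GRCm38 and mm10 are named, per the submitters' processing notes. The role of each tool, their versions and whether reads were collapsed by molecular tag are not given in the sources used here. A QIAseq kit for miRNA and reads of 50 nt were used, per the labels' protocols.

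Features were named from GENCODE M21, and the 2022 transcripts typed as miRNA set the miRNA total. Estimated counts were rounded. The log2 ratio of counts per 1000000 miRNA counts used a pseudocount of 0.5 counts and an exact conditional 95% interval. A hairpin with at least 100 counts over both libraries is called apart at 2-fold or more with an interval that excludes 1, and the background includes the 9 members. A count of 0 was read as up to 3 counts. The interval of a difference between label ratios is a normal approximation from the 4 counts. Other genes were summed over transcripts and scaled to all features, except genes that overlap a member, which were scaled to the miRNA total. The ratios and calls were tested on simulated counts with counting error only, which does not cover spread between cultures.

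Named features are the 9 members, the other let-7 hairpins, overlapping genes, Dis3l2, the 5 hairpins with the nearest profile, and, of each pathway list, the 3 with most counts and those past 2-fold. Genes outside this rule (Tut4, Tut7, Lin28b and Hmga2 and those given for being close to 2-fold or below 0) were chosen after their values were seen. The members and lists were chosen with earlier results of these data known. Alternatives were edgeR 4.0.16 TMM factors, DESeq2 1.42.0 size factors, other totals, a pseudocount of 5, count minimums of 10 and 1000, and other sums of hairpins. Python 3.11.15 and R 4.3.3 were used.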

Additional observations from a re-analysis of the deposited data

Results flagged for a closer look

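Each value here compares ratios that had opposite signs in the groups set side by side, with counting intervals that exclude 0 in both. With 1 library per group the difference was not tested against any spread between cultures, and other scales shift all of them by a common amount. Such a shift can turn a sign. With the total of all features the label ratio of Mirlet7g was -0.21 in cells and -0.80 in vesicles. The label ratio of Mirlet7i was 0.22 in cells and -0.10 in vesicles, a difference of -0.32. That of Mirlet7a-1 was 0.03 and -0.10 (-0.13), that of Mirlet7f-2 0.01 and -0.11 (-0.12), and that of Mirlet7g -0.06 and 0.06 (0.11). The ratio of vesicles to cells of Mirlet7c-2 was 0.11 under the shNS label and -0.11 under the shDis3l2 label, a difference of -0.22. That of the 9 members summed was 0.04 and -0.09, a difference of -0.13.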

How the results depend on the processing

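Scale decides the sign of the small ratios, and the cause was not tested. The sum of the 9 members, 0.14 for the labels in cells, was 0.21 under TMM factors, 0.17 under DESeq2 factors, -0.021 with all features, 0.19 without the members in the total, 0.11 with the other let-7 hairpins and 0.11 as the median of members. For the labels in vesicles (0.00) these were -0.34, -0.34 and -0.86 for the first 3, 0.037 with Mir symbols only and 0.058 as the median. For vesicles against cells under the shNS label (0.04) they were -0.58, -0.77 and -1.79, 0.059 without the members, 0.076 with Mir symbols only, 0.017 with the other let-7 hairpins and 0.11 as the median. Under the shDis3l2 label (-0.09) they were -1.13, -1.29 and -2.63, -0.13 without the members, -0.025 with Mir symbols only and 0.019 as the median. The difference of label ratios (-0.13) was -0.55, -0.51 and -0.84, then -0.19 without the members, -0.10 with Mir symbols only, -0.11 with the other let-7 hairpins and -0.028 as the median.

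Members past 2-fold stayed at 0 for the labels under every alternative run. For vesicles against cells they were 1, 3 and 9 under the shNS label and 5, 6 and 9 under the shDis3l2 label with TMM, DESeq2 and all-feature scales, each of them lower in vesicles. The hairpins past 2-fold were 79, 110, 196 and 220 at a minimum of 10 counts, in the order of the comparisons above, against 34, 46, 85 and 96. At 1000 counts they were 20, 45 and 49 in the last 3, and with all features 164 and 178 for vesicles against cells. Split into higher and lower, the vesicle label calls were 34 and 12, but 19 and 22 under TMM, 20 and 22 under DESeq2 factors and 7 and 50 with all features. The cell label calls were 15 and 19, and 10 and 22 with all features. For vesicles against cells they were 71 and 14 (label shNS) and 77 and 19 (label shDis3l2), but 49 and 41, and 50 and 72, under TMM, 44 and 57, and 49 and 83, under DESeq2 factors, and 29 and 135, and 33 and 145, with all features. A pseudocount of 5 changed none of these counts of higher or lower calls by more than 2 hairpins. Adding transcripts that overlap a member, an alternative chosen after the data were examined, left the sum as it was to within 0.01.

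No paired analysis was made: each group has 1 library, and pairing vesicles with cells by label would treat the labels as replicates. Depth is not the limit for these abundant hairpins: the widest counting interval of a member or of the sum spans 0.13 percentage points of miRNA counts. What limits them is the lack of replicate libraries and the division of identical mature sequences among copies.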
